A study of Mus musculus with 4 samples.

Results

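Imprinted genes are a small set whose RNA comes mainly from the allele of a single parent, and 38 of them were followed here in mouse E14 embryonic stem cells that had received an shRNA against the endogenous retrovirus MERVL (MuERVL). The 38 were chosen by gene symbol from a list drawn up with earlier results of these data known. They came out of 43496 Ensembl genes in the deposited count table, and each matched exactly 1 row. Ordered by locus they form 17 clusters or single loci. Textbook knowledge assigns 13 of them to the maternal allele, among these 4 whose bias is best known from the placenta (Cd81, Tssc4, Nap1l4 and Ascl2), 20 to the paternal allele, and 5 to an allele that depends on isoform or tissue (Blcap, Copg2, Grb10, Gnas and Inpp5f). These assignments are background: the counts carry no allele information, so no value below says which parental copy was transcribed.

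The control group was 2 libraries from cells labelled wild type that had received a random shRNA, and the other group was 2 libraries labelled as MERVL knocked down. All 4 libraries share the line, labelled with the strain 12910la, growth on gelatin with serum and LIF, transfection with 1000 ng of a pSuper puro plasmid, and 1 µg/ml puromycin from 24 h after transfection for 4 days. E14 is a single established line, and the cells were selected as a pool rather than cloned, as far as the protocols say. Whether libraries of a group came from separate cultures is not labelled; p-values therefore reflect the spread between these 4 libraries alone, and that spread may be technical. Libraries held 11628887 to 16067854 estimated counts, and levels are given as CPM, counts scaled to a common library size after TMM adjustment. MERVL RNA, the shRNA target, summed over 2277 copies to 4661 and 1431 CPM with random shRNA and to 1161 and 572 CPM with MERVL shRNA. The target was thus lower in both MERVL shRNA libraries, but the random shRNA libraries stood apart from each other, so results below are also given without one or the other where that matters.

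At an imprinted locus, a differentially methylated imprinting control region set in the germline keeps the alleles apart, often through a long noncoding RNA or an insulator that acts on several neighbours. The zinc finger proteins ZFP57 and ZFP445 bind methylated control regions with TRIM28 and hold the mark through early development. Many paternally expressed genes promote growth of the fetus and placenta and many maternally expressed genes restrain it, and imprints are known to drift in cultured embryonic stem cells.

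Sequence before a RefSeq start site is shown for 4 members as examples. Phlda2, Plagl1 and Nnat are among 16 of 35 tested members that were lower in both MERVL shRNA libraries, and no member passed after adjustment in the main test below. Kcnq1ot1 starts inside the control region of the domain that holds Phlda2 and Cdkn1c. All are RefSeq sequences of GRCm38.p6, 5′ to 3′ on the strand of the gene, at chr7:143502542-143502774 (minus) for Phlda2, chr10:13090582-13090787 (plus) for Plagl1, chr2:157559828-157560077 (plus) for Nnat and chr7:143296548-143296797 (minus) for Kcnq1ot1. Windows are 250 bases, less any stretch annotated as UTR, which shortens Phlda2 to 233 and Plagl1 to 206. The Plagl1 and Phlda2 windows lie inside the GENCODE spans of these genes, which include transcripts from starts further upstream; the counted rows cover all of these transcripts. Capitals mark TGCCGC or its reverse complement GCGGCA, the hexamer that ZFP57 recognises when methylated.
Phlda2: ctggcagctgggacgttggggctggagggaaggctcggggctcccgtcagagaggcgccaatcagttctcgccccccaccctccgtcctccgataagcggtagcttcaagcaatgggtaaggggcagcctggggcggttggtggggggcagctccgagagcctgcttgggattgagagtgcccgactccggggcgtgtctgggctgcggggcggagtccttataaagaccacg
Plagl1: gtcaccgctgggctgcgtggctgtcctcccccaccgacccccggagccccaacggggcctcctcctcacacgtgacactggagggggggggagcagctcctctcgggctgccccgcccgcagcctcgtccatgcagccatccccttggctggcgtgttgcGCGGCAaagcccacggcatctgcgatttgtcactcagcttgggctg
Nnat: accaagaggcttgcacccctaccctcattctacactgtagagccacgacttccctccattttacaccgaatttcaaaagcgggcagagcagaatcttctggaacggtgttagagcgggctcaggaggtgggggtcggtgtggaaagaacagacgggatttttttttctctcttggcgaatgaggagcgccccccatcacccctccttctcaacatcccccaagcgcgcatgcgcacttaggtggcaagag
Kcnq1ot1: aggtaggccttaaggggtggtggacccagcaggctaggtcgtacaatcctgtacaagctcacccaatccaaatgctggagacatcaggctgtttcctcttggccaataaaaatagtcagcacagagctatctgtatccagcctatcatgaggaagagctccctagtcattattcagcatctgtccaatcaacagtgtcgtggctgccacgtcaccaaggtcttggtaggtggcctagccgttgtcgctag
The Plagl1 window held the hexamer 1 time and the other 3 windows held no match. Windows of the full 250 bases were found for 30 of the 38 members, and not for H19, Cdkn1c, Kcnq1, Nap1l4, Peg10, Sgce, Rtl1 and Impact. Some genes have several starts, and 8 of the 44 member windows (18.2%) held the hexamer on either strand, against 8.68% of all 32851 windows. The 8 windows belong to 7 members, since overlapping Mest windows starting at 30737800 and 30737803 both held it. Member windows also held more CpG dinucleotides, with a median of 11.5 against 6, which bears on how often a hexamer with a CpG occurs. These are descriptions of sequence, and no methylation was measured.

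Which imprinted genes differed between the shRNA groups was asked with the edgeR quasi-likelihood test over all genes and MERVL copies together. After a filter on low counts 35 of the 38 members remained, and no member passed at an adjusted p under 0.05 in either direction; among the 15735 genes tested, 0.0% were called lower and 0.00636% higher. The smallest adjusted p of a member was 0.161, for Cdkn1c. This fit called 0 features lower, MERVL copies included, although the summed target RNA was lower. It also called 0 of 11 genes of the 2-cell-like state, given below, whose log2 fold changes ran from -5.56 to -1.31. A lack of calls is therefore no sign that levels were equal. Without adjustment 8 members had a p under 0.05 and all 8 had a negative log2 fold change (Cdkn1c, Phlda2, Ascl2, Igf2r, Plagl1, Nnat, Peg10 and Ndn), beside 6.35% of genes lower and 4.87% higher by the same rule. DESeq2 called 1 member lower (Cdkn1c) and 0 higher, beside 0.655% and 0.413% of genes, and limma-voom called 0 members and 0.0% of genes. With no filter on low counts edgeR called 7 members lower (Cdkn1c, Phlda2, Plagl1, Nnat, Peg10, Ndn and Magel2), beside 1.81% of genes lower and 1.05% higher. That fit gave Meg3 and Mest the same SE of 0.178, where the filtered fit gave 0.446 and 0.175, so each gene's own spread entered little. Against the filtered fit the SE was smaller for Peg10 (0.182 against 0.336), Plagl1, Ndn and Magel2. It was larger for Cdkn1c (0.261 against 0.215), Phlda2 and Nnat. With the replicate number as a block edgeR called 3 lower (Cdkn1c, Phlda2 and Plagl1), beside 1.6% lower and 0.699% higher. The filter removed Kcnq1, Airn and Zim1, which stayed at or below 0.447 CPM in every library.

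By position of the libraries, 16 of the 35 members had both MERVL shRNA libraries below both random shRNA libraries, 5 had both above and 14 overlapped. The same rule placed 21.9% of all genes tested below and 23.0% above. The median log2 fold change was -0.12 over the members and -0.01 over all features tested. Among maternally expressed members it was -0.39, with 9 of 11 negative (49.5% of all genes tested) and 7 lower in both MERVL shRNA libraries against 0 higher. Of those 7, 6 lie in the Kcnq1ot1 domain (Cdkn1c, Phlda2, Slc22a18, Ascl2, Cd81 and Nap1l4), and the other is Igf2r. The count is therefore not one of separate loci. Among paternally expressed members it was -0.11, with 12 of 19 negative, 7 lower in both and 4 higher in both (Igf2, Zdbf2, Zrsr1 and Mcts2). Among the 5 isoform- or tissue-dependent genes it was -0.07, with values from -0.31 for Blcap to 0.37 for Copg2. In RNA from whole cultures, fewer cells expressing a gene and less RNA per cell cannot be told apart, here and below.

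**Figure D1:**
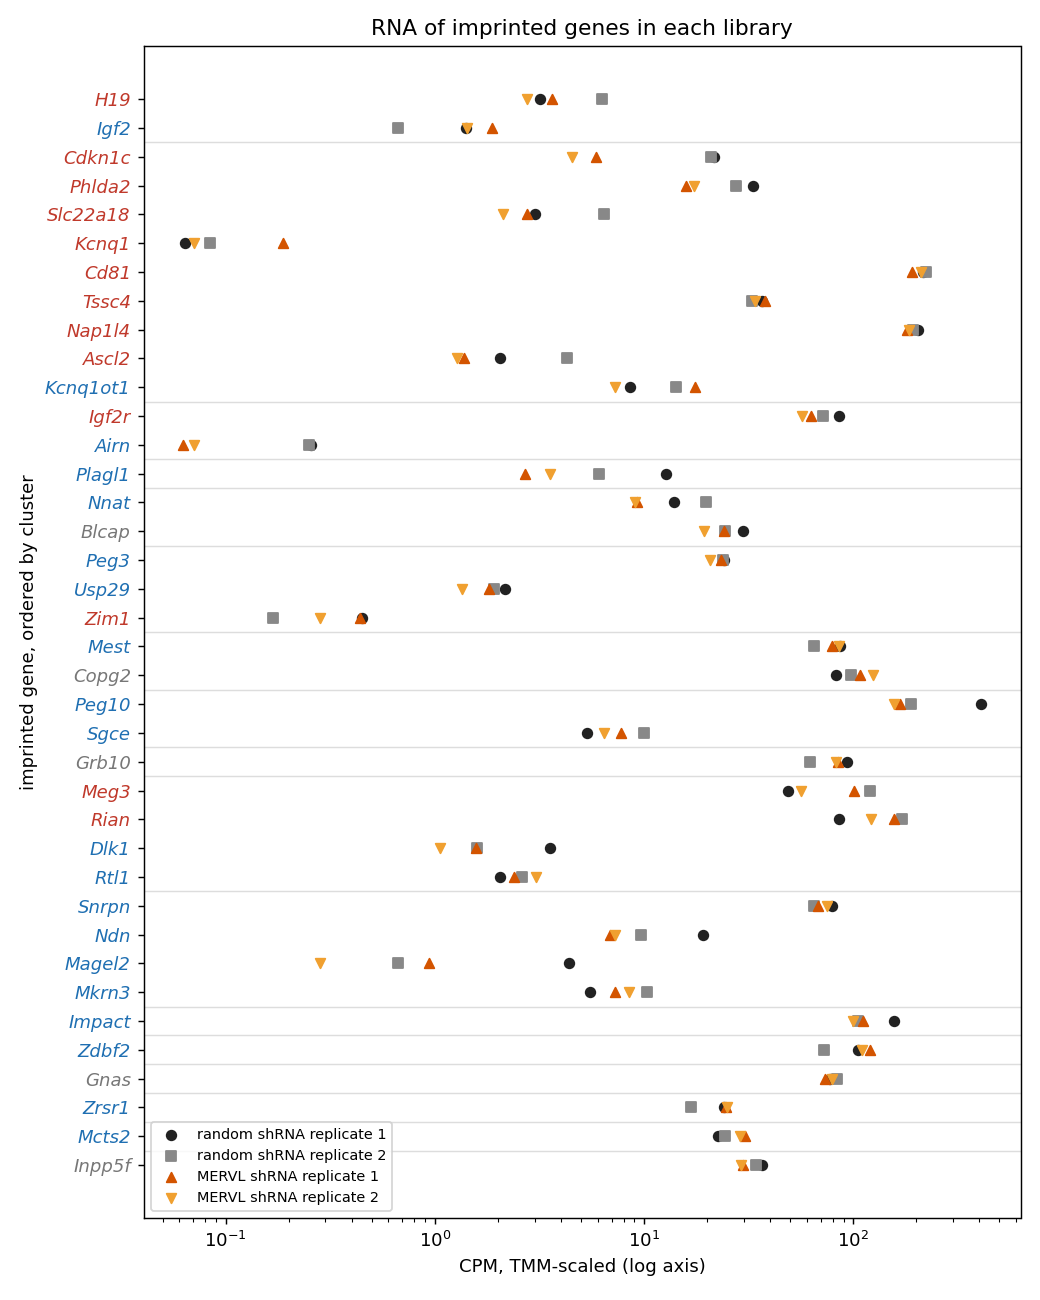
CPM (TMM-scaled, log axis) of the 38 imprinted genes in each of the 4 libraries, 1 point per library, with genes ordered by cluster and names coloured red for maternally expressed, blue for paternally expressed and grey for isoform- or tissue-dependent. Cdkn1c shows the random shRNA libraries at 21.6 and 20.9 CPM well to the right of the MERVL shRNA libraries at 5.91 and 4.54 CPM, whereas Meg3 and Kcnq1ot1 have the groups interleaved.

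**Figure D2:**
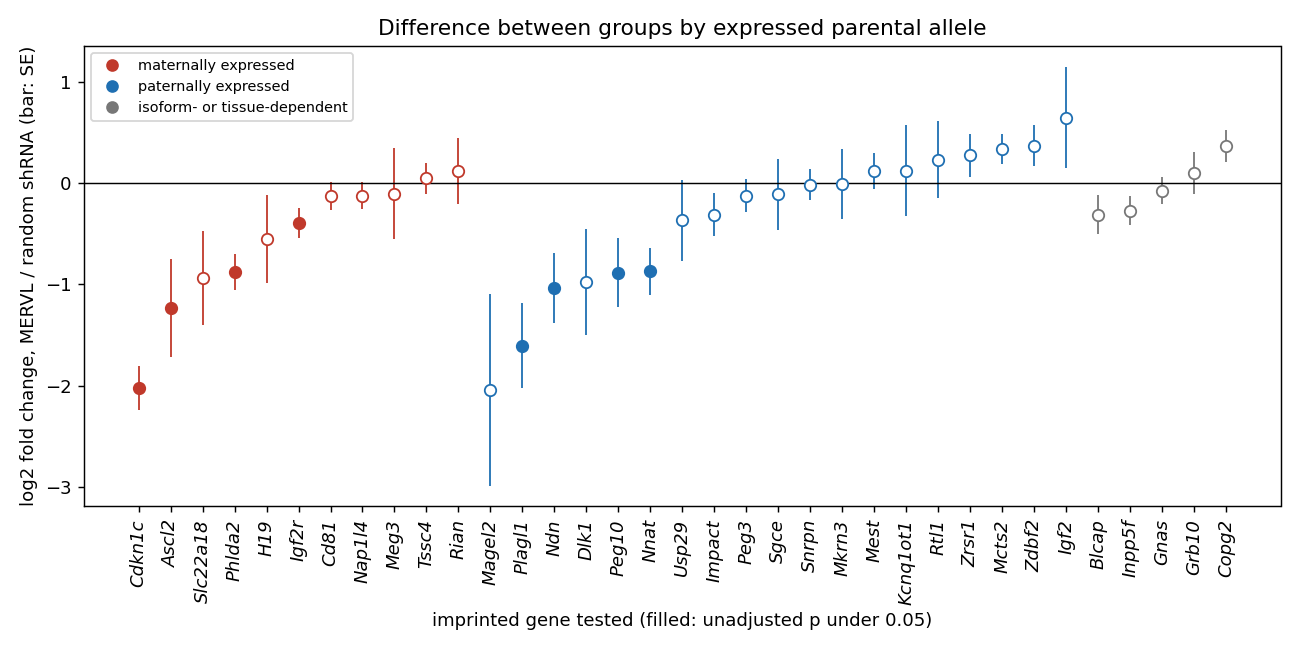
Log2 fold change of MERVL shRNA over random shRNA with its SE for the 35 genes tested, grouped by expressed parental allele, with filled points for an unadjusted p under 0.05. The 8 filled points all lie below 0, and they include 4 maternally and 4 paternally expressed genes.

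The Kcnq1ot1 domain of chromosome 7 held the member nearest to a call. Its control region is the promoter of Kcnq1ot1, a long noncoding RNA of the paternal chromosome that silences neighbours in cis, so that those genes are expressed from the maternal chromosome. Cdkn1c encodes the cyclin-dependent kinase inhibitor p57 and restrains growth. Its gene spans positions 143458339 to 143461050 on the minus strand (GRCm38). Its level was 21.6 CPM in random shRNA replicate 1, 20.9 in replicate 2, and 5.91 and 4.54 in MERVL shRNA replicates 1 and 2. Pairs of values below keep this order. The random shRNA libraries were close to each other and the groups were far apart, with means of 21.2 ± 0.484 and 5.22 ± 0.967 CPM (SD, n = 2). The fitted level was 4.05-fold lower with MERVL shRNA (log2 fold change -2.02 ± 0.22, SE; adjusted p = 0.161 in edgeR).

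Phlda2, a pleckstrin homology domain protein that restrains growth of the placenta, lies beyond Slc22a18 on the side of Cdkn1c away from Kcnq1ot1. It was at 33.2 and 27.6 CPM in the random shRNA libraries and at 15.8 and 17.3 CPM in the MERVL shRNA libraries. The groups did not overlap, and the log2 fold change was -0.88 ± 0.17 (edgeR adjusted p = 0.305). Slc22a18, an organic cation transporter whose gene lies 2210 bp from that of Phlda2, was at 2.999 and 6.46 CPM and then 2.77 and 2.13 CPM. Random shRNA replicate 2 stood well above the others, and the log2 fold change was -0.94 ± 0.47, and -0.27 with that library left out. Ascl2, a transcription factor needed for the trophoblast, was at 2.04 and 4.28 CPM with random shRNA and 1.38 and 1.28 CPM with MERVL shRNA. Its log2 fold change was -1.23 ± 0.48 (edgeR adjusted p = 0.353), and it was -0.60 without random shRNA replicate 2.

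The remaining genes of the domain differed little. Cd81, a tetraspanin, was at 215 and 224 CPM with random shRNA and 191 and 210.3 CPM with MERVL shRNA (log2 fold change -0.13 ± 0.14). The histone chaperone gene Nap1l4, next to Phlda2 across 10428 bp, was at 204 and 194 and then 181 and 184 CPM (-0.12 ± 0.13). Both genes had all MERVL shRNA values below the random shRNA values, by less than the SE of the difference. Tssc4, a splicing factor gene 1314 bp from Cd81, was at 36.8 and 32.7 and then 37.9 and 33.9 CPM, with groups that overlapped (0.05 ± 0.15). Kcnq1ot1 itself was at 8.61 and 14.3 CPM with random shRNA and 17.5 and 7.24 CPM with MERVL shRNA. The highest and the lowest of the 4 values were both MERVL shRNA libraries, and the log2 fold change was 0.12 ± 0.45. Kcnq1, the potassium channel gene that Kcnq1ot1 overlaps, had 1 to 3 estimated counts per library.

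Around the start of Kcnq1ot1 the lower values were not confined to members and not shared by every gene. Cars, a cysteinyl-tRNA synthetase gene, was at 80.1 and 81.5 CPM with random shRNA and 102 and 104 CPM with MERVL shRNA, giving a log2 fold change of 0.35 ± 0.13. Osbpl5, an oxysterol-binding protein gene with reported imprinting in the placenta, was at 1.40 and 2.26 and then 0.566 and 0.639 CPM (-1.58 ± 0.48). Neither passed in edgeR (adjusted p = 0.338 and 0.329). Within the domain Trpm5, in neither imprinted list, had -0.13 ± 0.55. The nearest such protein-coding genes tested beyond the ends of the domain, Mrpl23 and Nadsyn1, had -0.17 ± 0.20 and -0.25 ± 0.28.

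**Figure D3:**
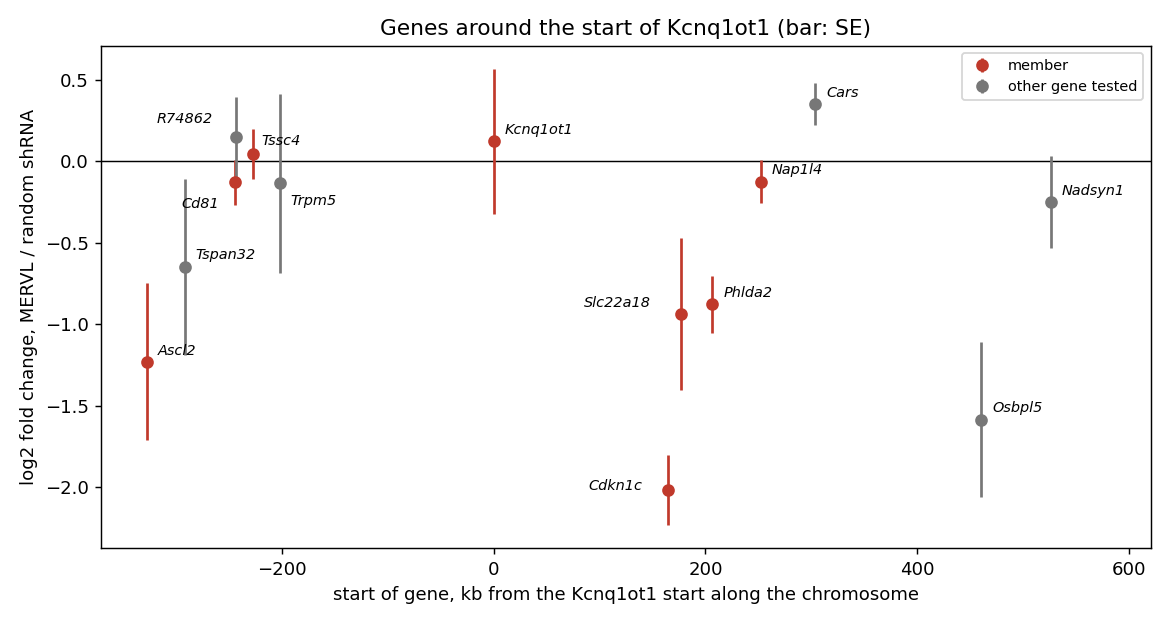
Log2 fold change of MERVL shRNA over random shRNA with its SE for the tested genes that start within 600 kb of the Kcnq1ot1 start, against distance along chromosome 7 in kb, members in red and other genes in grey. Cdkn1c, Slc22a18 and Phlda2, between 165 and 207 kb, lie at -2.02, -0.94 and -0.88, while Nap1l4 and Cars further along lie at -0.12 and 0.35.

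In the H19-Igf2 cluster, also on chromosome 7, an insulator bound by CTCF on the maternal chromosome separates Igf2, which encodes a fetal growth factor, from enhancers that then serve the noncoding RNA H19. H19 was at 3.19 and 6.29 CPM with random shRNA and 3.65 and 2.77 CPM with MERVL shRNA. Random shRNA replicate 2 alone was high, the groups overlapped, and the log2 fold change was -0.55 ± 0.43. Igf2 was near the detection limit at 1.40 and 0.671 and then 1.89 and 1.42 CPM, with 8 to 30 estimated counts per library. Its MERVL shRNA values lay above the random shRNA values by a small margin, and the log2 fold change of 0.65 ± 0.50 was 1.30 without random shRNA replicate 1 and 0.26 without replicate 2. Neither gene had an unadjusted p under 0.05.

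Igf2r encodes the receptor that clears IGF2 and restrains growth, and in other tissues the antisense RNA Airn silences its paternal allele. Igf2r was at 85.5 and 71.5 CPM with random shRNA and 62.7 and 56.9 CPM with MERVL shRNA. The groups did not overlap but random shRNA replicate 2 was nearer to MERVL shRNA replicate 1 than to replicate 1 of its own group, and the log2 fold change was -0.39 ± 0.15 (edgeR adjusted p = 0.347), or -0.25 without random shRNA replicate 1. Airn had 1 to 4 estimated counts per library, too few to test. Its neighbours Map3k4 and Pnldc1, on either side of the cluster, were both at 0.18 on the log2 scale (SE 0.16 and 0.19).

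Plagl1, on chromosome 10 at positions 13060504 to 13131694, encodes the zinc finger protein ZAC1, which arrests growth and is known to regulate a network of other imprinted genes. It was at 12.8 and 6.12 CPM with random shRNA and 2.70 and 3.55 CPM with MERVL shRNA. Both random shRNA libraries were higher, replicate 1 by far. The log2 fold change was -1.60 ± 0.42 (edgeR adjusted p = 0.329), and it was -0.97 without random shRNA replicate 1. The neighbours Sf3b5 and Ltv1 were at -0.11 ± 0.15 and 0.13 ± 0.14.

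Nnat, which encodes the membrane proteolipid neuronatin, lies inside an intron of Blcap on the opposite strand, on chromosome 2 at positions 157560078 to 157562522. It was at 13.9 and 19.8 CPM with random shRNA and 9.30 and 9.08 CPM with MERVL shRNA. The MERVL shRNA libraries were nearly equal and both below the random shRNA libraries, with a log2 fold change of -0.87 ± 0.23 (edgeR adjusted p = 0.329) that was -0.58 without random shRNA replicate 2. Blcap, a regulator of cell growth, was at 29.6 and 24.3 and then 24.1 and 19.3 CPM (-0.31 ± 0.19). The sources do not state whether counting used strand, so reads of overlapping stretches of this pair cannot be told apart. The same holds for Mest with Copg2 and for other members that overlap a gene on the opposite strand.

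Peg10, derived from a retrotransposon and needed for the placenta, had the highest mean CPM of any member with random shRNA. It was at 407 and 190.2 CPM with random shRNA and 167 and 157 CPM with MERVL shRNA. Random shRNA replicate 1 stood apart from the other 3 libraries, the log2 fold change was -0.88 ± 0.34 (edgeR adjusted p = 0.347), and without that library it was -0.22. Sgce, the sarcoglycan gene that starts 98 bp from Peg10 in the opposite direction and shares its control region, overlapped between groups (-0.11 ± 0.35). It was at 5.36 and 10.1 CPM with random shRNA and 7.73 and 6.46 CPM with MERVL shRNA, so the random shRNA library that was highest for Peg10 was lowest for Sgce.

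The Mest and Peg3 loci overlapped or differed by small amounts. Mest, a hydrolase-like gene of mesoderm, was at 86.6 and 64.9 CPM with random shRNA and 78.9 and 85.8 CPM with MERVL shRNA (0.12 ± 0.17). Copg2, a coatomer subunit gene whose end overlaps Mest, was at 82.6 and 97.4 and then 107 and 125 CPM (0.37 ± 0.16), higher in both MERVL shRNA libraries. Peg3, a zinc finger gene with roles in growth and maternal behaviour, was at 24.2 and 23.9 and then 23.4 and 20.7 CPM (-0.12 ± 0.16). Usp29, which starts 146 bp from Peg3 on the other strand, was at 2.17 and 1.93 and then 1.82 and 1.35 CPM (-0.37 ± 0.40). Both Peg3 locus genes were slightly below the random shRNA values, by about the size of the SE or less.

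In the Snrpn cluster of chromosome 7, the region of Prader-Willi syndrome in its human counterpart, the 4 members went different ways between libraries. Snrpn, a splicing protein gene, was at 78.9 and 65.1 CPM with random shRNA and 67.7 and 75.0 CPM with MERVL shRNA (-0.01 ± 0.15). Its row overlaps those of Snurf and a second annotated gene on the same strand, and counts were not whole in any library, so its own level is uncertain. Ndn, which encodes the growth suppressor necdin, was at 19.3 and 9.64 CPM with random shRNA and 6.85 and 7.31 CPM with MERVL shRNA. Random shRNA replicate 1 was far above the rest, and the log2 fold change of -1.04 ± 0.35 (edgeR adjusted p = 0.329) was -0.44 without it. Magel2, a regulator of ubiquitin ligases and the gene next to Ndn, was at 4.40 and 0.671 and then 0.943 and 0.284 CPM. Its groups overlapped, and the log2 fold change was -2.04 ± 0.94 with all libraries and -0.09 without random shRNA replicate 1. Mkrn3, a ubiquitin ligase gene 35952 bp further on, was at 5.55 and 10.4 and then 7.29 and 8.51 CPM (-0.01 ± 0.34), with random shRNA replicate 1 lowest.

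The Dlk1-Meg3 cluster of chromosome 12 is known for silencing of its maternal noncoding RNAs in some embryonic and induced pluripotent stem cell lines. Here those RNAs were present. Meg3 was at 48.7 and 121 CPM with random shRNA and 101 and 56.6 CPM with MERVL shRNA, and Rian was at 85.9 and 172 and then 158 and 122 CPM. For both, random shRNA replicates 1 and 2 were the lowest and the highest library, and the log2 fold changes were -0.10 ± 0.45 and 0.12 ± 0.32. The log2 fold change of Meg3 was -0.61 without random shRNA replicate 1 and 0.71 without replicate 2. Dlk1, a Notch-like growth regulator of the paternal allele, was at 3.57 and 1.59 CPM with random shRNA and 1.57 and 1.06 CPM with MERVL shRNA (-0.98 ± 0.52). That difference was -0.26 without random shRNA replicate 1 and -1.41 without replicate 2. Rtl1, a retrotransposon-derived gene of the placenta, was at 2.04 and 2.60 and then 2.39 and 3.05 CPM (0.23 ± 0.38), but reads of antisense transcripts cannot be told apart from its own.

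The 7 further members at single loci had log2 fold changes between -0.31 and 0.37. Impact, a regulator of translation, was at 157 and 106 CPM with random shRNA and 112 and 99.6 CPM with MERVL shRNA (-0.31 ± 0.21). Zdbf2, a paternal gene known to act on feeding in mice, was at 105 and 72.6 and then 119.8 and 110.2 CPM (0.37 ± 0.20). Grb10, an adaptor that dampens insulin signalling, was at 93.9 and 62.5 and then 84.9 and 82.7 CPM (0.10 ± 0.21). For these 3 genes random shRNA replicate 1 was the higher of its pair, and only Zdbf2 had groups that did not overlap. Its log2 fold change was 0.67 without random shRNA replicate 1 and 0.15 without replicate 2. The splicing factor gene Zrsr1 was at 24.1 and 16.8 and then 24.8 and 24.8 CPM (0.27 ± 0.21), a difference of 0.57 without random shRNA replicate 1 and 0.056 without replicate 2. Mcts2, a retrogene in an intron of H13 related to a translation factor, was at 22.6 and 24.3 and then 30.3 and 28.8 CPM (0.33 ± 0.15). Gnas, the stimulatory G protein subunit, was at 77.9 and 83.5 and then 73.8 and 79.5 CPM (-0.07 ± 0.13), and the inositol phosphatase gene Inpp5f at 36.6 and 34.4 and then 29.6 and 29.2 CPM (-0.27 ± 0.14). Mcts2 and Inpp5f each had tight pairs and groups that did not overlap, with unadjusted p-values of 0.0658 and 0.102 in edgeR.

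The random shRNA libraries differed from each other in many imprinted genes, in both directions. A gap over 1.5-fold was present in 15 of the 35 members, 7 higher in replicate 1 and 8 higher in replicate 2, beside 9.95% and 15.6% of all genes tested. The 7 were Igf2, Plagl1, Peg10, Dlk1, Ndn and Magel2, all paternally expressed, and Grb10. Of the 8, Meg3, Rian, H19, Slc22a18 and Ascl2 are maternally expressed, and Kcnq1ot1, Sgce and Mkrn3 paternally. Of the 11 maternally expressed members tested, 0 were over 1.5-fold higher in replicate 1, where 9.95% of all genes were. A share of that size leaves few among 11 genes, so this 0 does not set the maternally expressed members apart. In replicate 2 Igf2 and Magel2 had 8 estimated counts each and Dlk1 had 19, so their gaps rest on few counts. Some of the genes share a cluster, as Meg3 and Rian or Ndn and Magel2 do. The largest gaps were 6.56-fold for Magel2, 2.24-fold for Dlk1 and 2.14-fold for Peg10 toward replicate 1, and 2.48-fold for Meg3 and 2.15-fold for Slc22a18 toward replicate 2. Cdkn1c, with 1.03-fold, was among the steadiest members on CPM. This compares 2 libraries of the same group, so it has no replicate check and no test.

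**Figure D4:**
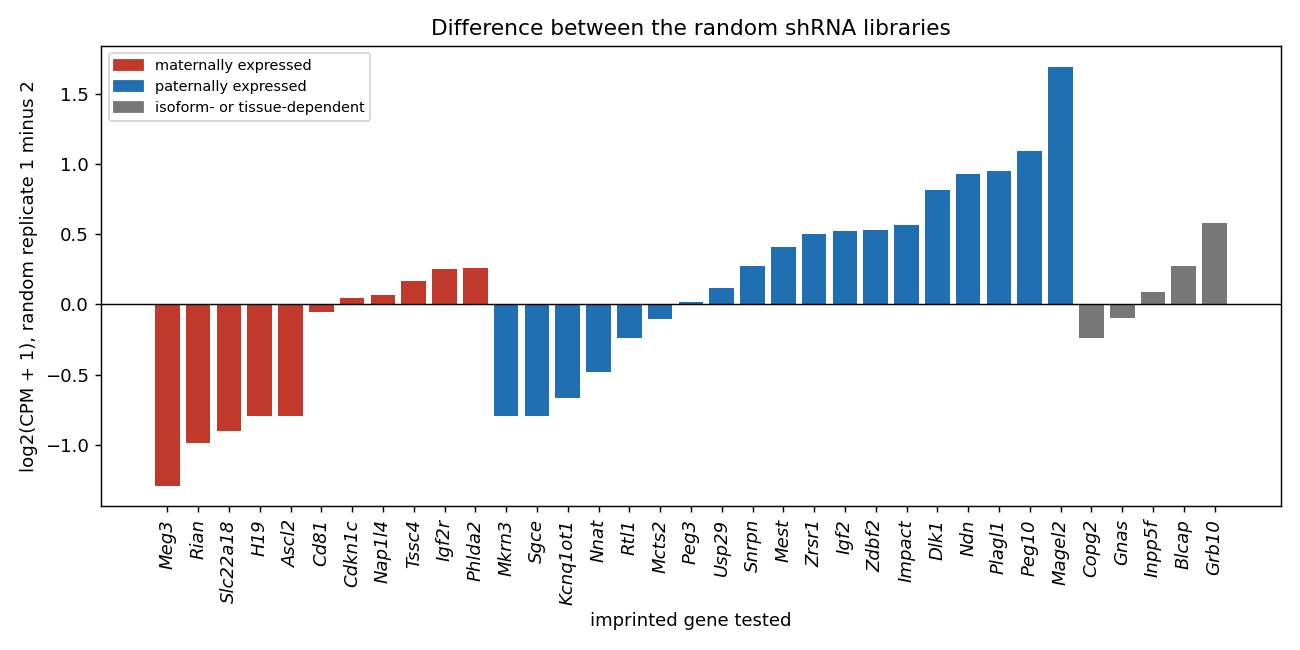
Difference in log2(CPM + 1) between random shRNA replicate 1 and replicate 2, a difference on the log2 scale, for the 35 imprinted genes tested, 1 bar per gene, grouped by expressed parental allele. Maternally expressed genes reach -1.29 for Meg3 and no higher than 0.26 for Phlda2, whereas paternally expressed genes run from about -0.80 for Mkrn3 and Sgce to 1.69 for Magel2.

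Calls depended on which library entered. Without random shRNA replicate 1, edgeR called 8 members lower (H19, Cdkn1c, Phlda2, Slc22a18, Ascl2, Plagl1, Nnat and Meg3) and 4 higher (Mest, Grb10, Zdbf2 and Zrsr1), beside 7.32% and 7.03% of genes. Without random shRNA replicate 2 it called 11 lower and 5 higher, beside 13.7% and 15.6%, and Meg3 was then among the higher genes. Cdkn1c, Phlda2, Plagl1 and Nnat were called lower both times; the lone control library was assumed to vary like the MERVL shRNA pair. Without MERVL shRNA replicate 1 or replicate 2 no member was called, beside 0.0% of genes lower and 0.0122% or 0.012% higher. The log2 fold change of Cdkn1c ran from -2.19 to -1.83 over the 4 omissions and that of Phlda2 from -0.99 to -0.73. For Peg10 it ran from -1.31 to -0.22 and for Ndn from -1.43 to -0.44. Smaller differences moved as well, over -0.45 to -0.15 for Blcap, -0.57 to -0.15 for Usp29, -0.19 to -0.033 for Cd81 and -0.19 to -0.026 for Peg3.

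**Figure D5:**
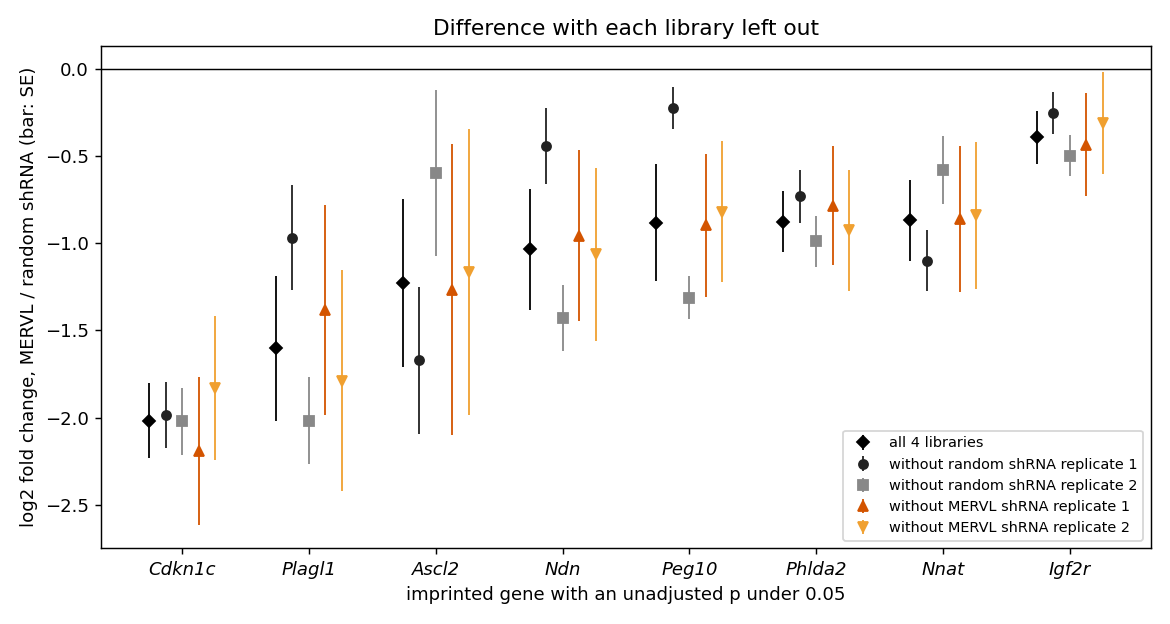
Log2 fold change with its SE for the 8 imprinted genes with an unadjusted p under 0.05, with all 4 libraries and with each library left out. Cdkn1c stays near -2.02 with either random shRNA library left out, while Peg10 moves from -0.88 to -0.22 without random shRNA replicate 1.

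In the authors' second deposited table, of normalized scores, these gaps between the random shRNA libraries were nearly absent. For Meg3 the scores were 1154 and 1150 in the random shRNA libraries, where CPM stood at 48.7 and 121, and for Peg10 they were 3791 and 4060, where CPM stood at 407 and 190.2. Cdkn1c, steady on CPM, had scores of 277 and 336. That gap of 0.28 on log2(score + 1) was the largest of the 35 members tested. Over the 35 members the median size of the gap was 0.04 on log2(score + 1) and 0.50 on log2(CPM + 1), and no member had a gap over 1.5-fold in the scores. Between the MERVL shRNA libraries it was 0.17 on either scale. A limma fit of log2(score + 1) called 9 members lower (Cdkn1c, Phlda2, Slc22a18, Ascl2, Plagl1, Nnat, Peg10, Ndn and Inpp5f) and 3 higher (Zdbf2, Zrsr1 and Mcts2), beside 10.1% and 9.72% of genes. The spread between control libraries behind these calls is thus smaller than that in the deposited counts.

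Among 38 factors that set, read or erase imprints, 36 were tested, none passed over all features (0 lower and 0 higher), and the median log2 fold change was 0.00. Without adjustment 4 had a p under 0.05 and were lower, and 2 were higher, beside 6.35% and 4.87% of all genes. Dnmt3l, the cofactor that helps set imprints in germ cells, was at 214 and 231 CPM with random shRNA and 128 and 137 CPM with MERVL shRNA, giving a log2 fold change of -0.75 ± 0.14 (edgeR adjusted p = 0.288). Kdm1b, a histone demethylase of oocyte imprinting, was at 22.1 and 19.7 and then 14.3 and 11.64 CPM (-0.69 ± 0.19). Tet2, an enzyme that oxidises methylated cytosine, was at 115 and 82.3 and then 182 and 156 CPM (0.77 ± 0.20), and Ezh2, a Polycomb methyltransferase, had -0.51 ± 0.15. The groups did not overlap in any of these 4 genes.

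Of the 36 imprint factors tested, 9 were lower and 8 higher in both MERVL shRNA libraries, beside 21.9% and 23.0% of all genes, and 19 overlapped. Among those that hold imprints after fertilisation, Zfp57 and Trim28 overlapped between groups. Zfp57 was at 616 and 465 CPM with random shRNA and 747 and 583 CPM with MERVL shRNA (0.30 ± 0.21). Trim28 was at 2636 and 1575 and then 1606 and 1746 CPM (-0.33 ± 0.26), with random shRNA replicate 1 alone high. The maintenance methyltransferase Dnmt1 had 0.03 ± 0.17 and the insulator protein Ctcf -0.11 ± 0.20. Dppa3, which protects imprints in the zygote, had at most 1.26 CPM and was not tested.

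Of 59 further imprinted genes, 52 were found by symbol and 37 were tested. None passed (0 lower and 0 higher), the median log2 fold change was 0.04, and 8 lay below and 9 above in both MERVL shRNA libraries, beside 21.9% and 23.0% of all genes. Those with the smallest p, besides Cars and Osbpl5, were Ddc (0.69 ± 0.18), Adam23 (0.51 ± 0.15), Qpct (1.25 ± 0.40) and Smoc1 (-0.66 ± 0.23). Ddc, a decarboxylase gene beside Grb10, was at 16.3 and 21.05 CPM with random shRNA and 30.1 and 30.2 CPM with MERVL shRNA. Of the 33 nearest tested neighbours of the clusters, 4 were lower and 9 higher in both MERVL shRNA libraries, by the rule that placed 21.9% and 23.0% of all genes so, with a median of 0.08. Among those nearest to loci with a member at an unadjusted p under 0.05, and not yet given, Src and Ctnnbl1 had 0.09 ± 0.20 and 0.08 ± 0.17. Bet1 and Pdk4, 587378 and 722834 bp from the ends of the Peg10 and Sgce locus, had -0.45 ± 0.18 and -0.05 ± 0.35. Chrna7, 678553 bp from the Snrpn cluster, had 0.75 ± 0.36.

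Compared per length, as CPM per kb of annotated exon with random shRNA, the highest means were those of Cd81 (76.2), Nap1l4 (64.4), Peg10 (44.8) and Snrpn (33.3). Phlda2 (27.1), Mcts2 (25.7) and Impact (25.6) followed with means close to each other. Cdkn1c was at 10.4 and, with MERVL shRNA, at 2.56. Igf2, Dlk1, Rtl1, Magel2 and Usp29 were all under 0.6, as were Kcnq1ot1, Airn, Zim1 and Kcnq1. Orders within these sets were not compared, since random shRNA values of many members differed by more than neighbouring genes did.

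Other RNAs differed along with these groups. Of the 2-cell-like state, 11 of 11 genes had both MERVL shRNA values below both random shRNA values, beside 21.9% of all genes. Their summed levels were 1536, 443, 325 and 186 CPM in the same order. Random shRNA replicate 1, high in these and in MERVL RNA, was over 1.5-fold above replicate 2 for 7 members, beside 9.95% of all genes. These were Peg10, Ndn, Magel2, Dlk1 and Plagl1, and also Igf2 and Grb10, whose log2 fold changes were positive (0.65 and 0.10). Another 8 members were over 1.5-fold higher in replicate 2, beside 15.6% of all genes. The part of the 2-cell-like state in those values was not tested. All 15 embryonic stem cell markers were tested, with summed levels of 9002 to 11136 CPM, and 10 of 15 were higher in both MERVL shRNA libraries, where 23.0% of all genes were. Trophoblast markers summed to 97.4 and 119 CPM with random shRNA and 89.4 and 93.9 CPM with MERVL shRNA, and 5 of 10 tested were lower in both, beside 21.9% of all genes. Of the 10, 6 had a negative log2 fold change and 4 a positive one, from -1.99 for Gata2 to 0.55 for Krt7. Cdx2 and Elf5 had at most 3 estimated counts and Prl3d1 was at 0. Fibroblast markers summed to 50.0 and 49.2 and then 24.8 and 22.8 CPM, and 4 of 6 tested were lower in both, beside 21.9% of all genes. Thy1 had -1.73 ± 0.22, and Col3a1, Postn, Lum and Prrx1 were at 0. Primitive endoderm markers summed to 265 to 328 CPM, with 3 of 12 tested lower in both and 1 higher in both, beside 21.9% and 23.0% of all genes. Neural progenitor markers summed to 184 and 102 and then 112 and 127 CPM, with 1 of 6 tested lower in both and 1 higher in both, by the rule that placed 21.9% and 23.0% of all genes so. Of these 6, 5 were over 1.5-fold higher in random shRNA replicate 1 than in replicate 2, beside 9.95% of all genes. Members such as Cdkn1c, Phlda2 and Ascl2 are also expressed in trophoblast or fibroblasts, and the part of such cells in their values was not tested.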

How the data were processed

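RNA-seq libraries of 2 random shRNA and 2 MERVL shRNA samples were compared. Per the submitters' processing notes, Trim Galore, HISAT2 and genome build mm10 were used; no source used here gives versions, the counting program or its strand setting. The authors deposited estimated counts for 45773 features, 43496 Ensembl genes and 2277 MERVL copies, of which 19.1% to 20.8% per library were not whole; these were rounded before count tests. The authors also deposited a normalized score for 17823 features, by a method not given in the sources used here. Gene symbols and coordinates were taken from the GENCODE M21 annotation (GRCm38).

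Features were filtered with filterByExpr, scaled by TMM and tested with the edgeR 4.0.16 quasi-likelihood F test (R 4.3.3), 2-sided, without a replicate term, and adjusted by Benjamini-Hochberg over all features. SEs come from the F statistic. Alternatives were DESeq2 1.42.0, limma 3.58.1 (voom, and log2(score + 1) for a mean score of at least 1), other scalings, filters and priors, genes without MERVL copies, a block for the replicate number and omission of each library in turn. The edgeR step was tested on simulated data in which both groups had the same spread, so that test does not cover groups of unequal spread. Within groups, the chi-square of counts per degree of freedom was 35.0 (random shRNA) and 6.35 (MERVL shRNA), so no library was a copy of another.

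The members, lists, alternatives and the rule for named genes were chosen with earlier results of these data known. By that rule members with a mean of at least 1 CPM in a group get a value per library. Fold changes are given for members with an unadjusted p under 0.05 and their clusters, for the smallest p in each list, and for neighbours of such clusters; those of further members were added after their values were seen. The value of 1 cluster neighbour is not reported here.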

Additional observations from a re-analysis of the deposited data

How the results depend on the processing

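Of 384 log2 fold changes of members under the 11 alternatives that keep all libraries, 377 had the sign reported; the others were Mkrn3 (0.000817 with RLE scaling, 0.0922 with limma-voom, 0.0155 with no filter, 0.0463 with the replicate block), Kcnq1ot1 (-0.0506 on scores), Snrpn (0.00541 with no filter) and Tssc4 (-0.0102 with total count scaling). With a library left out, 121 of 140 did. The genes that turned ran from -0.39 to 0.52 for Mkrn3, -0.63 to 0.63 for Kcnq1ot1, -0.13 to 0.14 for Snrpn, -0.019 to 0.14 for Tssc4, -0.29 to 0.72 for Rian, -0.12 to 0.00585 for Gnas, -0.49 to 0.42 for Sgce, -0.61 to 0.71 for Meg3, -0.55 to 0.00853 for Impact, -0.96 to 0.0287 for H19, -0.0563 to 0.35 for Mest and -0.15 to 0.43 for Grb10. Over all features, 1 was called higher and 0 lower; DESeq2 called 65 and 157, limma on scores 1662 and 1838, limma-voom 0 and 0, edgeR with no filter 270 and 1023, and with a library left out 2 to 2557 and 0 to 2985. Members called lower numbered 1 with DESeq2, 9 on scores, 7 with no filter and 0 to 11 with a library left out; members called higher numbered 3 on scores and 0 to 5. Imprint factors called numbered 2 with DESeq2, 7 on scores, 2 with no filter and 0 to 16 with a library left out, and further imprinted genes 11 on scores, 2 with no filter and 0 to 12. The member median was -0.18 with total count scaling and -0.25 to -0.12 with a library left out, the maternal median -0.61 to -0.14 and the paternal median -0.22 to -0.07. The cause of these changes was not tested.

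With the replicate number as a block, edgeR called 110 features higher and 628 lower, among them 3 members lower (Cdkn1c, Phlda2 and Plagl1), 2 imprint factors and 1 further imprinted gene. By that fit 0.699% of genes were called higher and 1.6% lower. Same-numbered libraries share only their number in the labels, and replicate 1 minus replicate 2 had a correlation of 0.22 between groups across features. Members under 10 CPM rest on few counts, and depth limits what can be seen for them.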
